A study of Mus musculus with 23 samples.

Results

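Solute carriers are membrane proteins that move small molecules such as amino acids, sugars, ions, metals and nucleotides into and out of cells and organelles, and their genes carry symbols that begin with Slc. They are described here in primary mouse embryonic fibroblasts, connective tissue cells grown from embryos, during the first 2 h of a serum response. The members are all genes whose probe sets on the Affymetrix array carry 1 symbol made of Slc and a number in the platform's annotation, without Slc2a1, the main glucose transporter of fibroblasts. They came to 150 of the 8251 genes with 1 symbol and to 184 of the 12422 probe sets tested. A single probe set measured 121 of them, and the other 29 had up to 4, of which the brightest over all arrays stood for the gene. All 150 matched a RefSeq gene of the same symbol. The probe set standing for the gene had a name ending in _f_at for 4 members, Slc25a5 and Slc25a51 among them. It had a name ending in _r_at for 4 others, among them Slc39a4. Whether these probe sets also read other genes was not tested. Slc4a1ap, Slc9a3r1 and Slc9a3r2 are binding partners of transporters that share the symbol and meet the rule.

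The cultures came from e14.5 embryos, and the labels give the genotype of every sample as C57/BLACK6, ATF1 -/+, so the controls carried it too. Cells were grown in high-glucose medium with 10% dialyzed serum, kept for 48 h in 1% dialyzed serum, and then given 200 µM 4-thiouridine and tritiated cytidine for 2 h in either 1% serum (starved) or 10% serum (treated). 4-Thiouridine enters RNA as it is made. An organomercurial matrix then bound the RNA with the thiol, the newly transcribed RNA. The other kinds were total RNA and amplified total RNA, told apart by the titles alone, because the labelling protocol reads the same for all samples. Unamplified total RNA below means total RNA whose titles do not call it amplified. Each of the 6 groups held 4 arrays, except amplified total RNA in 1% serum, which held 3. Intensities are quantile-normalized signals in arbitrary units, and a difference is 10% minus 1% serum on the scale of log2(intensity + 16) unless another is named. That scale understates the change of dim probe sets. Levels of different probe sets were not set against each other.

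A solute carrier sits in a membrane and either lets its substrate follow its gradient, swaps it for another solute, or couples it to sodium, protons or chloride. Growth factors in serum are known to raise the uptake of glucose, amino acids, phosphate and nucleosides by fibroblasts as the cells leave rest. Several carriers are also known to follow nutrient supply, among them Slc38a2, which is made in larger amounts when amino acids run short, and Slc39a4, which follows zinc.

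Promoters of 2 members named in the results are shown first, as 250 bases before the annotated start in RefSeq's assembly GRCm38.p6. The gene Slc20a1 encodes a sodium-coupled phosphate importer, and the first of its 2 promoters (chr2:129198523-129198772, plus strand) holds 2 E boxes, CACGTG, the letters read by MYC and related factors. The gene Slc25a25 encodes a calcium-regulated carrier that moves ATP and phosphate across the inner mitochondrial membrane, and the last of its 3 promoters (chr2:32424067-32424316, minus strand) holds the cAMP response element TGACGTCA, the letters read by ATF1 and CREB. The other promoters of both genes held none of the motifs searched, and a link of the motifs to serum or genotype was not tested. Capitals mark the E boxes and the cAMP response element.
Slc20a1: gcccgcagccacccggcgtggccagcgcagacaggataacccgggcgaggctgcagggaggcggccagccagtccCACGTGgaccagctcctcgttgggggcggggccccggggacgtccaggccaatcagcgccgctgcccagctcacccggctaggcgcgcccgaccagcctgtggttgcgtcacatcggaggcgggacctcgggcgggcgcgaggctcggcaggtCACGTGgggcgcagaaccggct
Slc25a25: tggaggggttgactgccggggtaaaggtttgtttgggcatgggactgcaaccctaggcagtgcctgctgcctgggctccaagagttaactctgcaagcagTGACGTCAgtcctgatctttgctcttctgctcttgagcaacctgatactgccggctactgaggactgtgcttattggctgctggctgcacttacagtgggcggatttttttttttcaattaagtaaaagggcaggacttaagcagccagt

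The E boxes of Slc20a1 begin at bases 76 and 229 of the printed run, and the element of Slc25a25 at base 101. Motifs were searched on both strands in windows that also took in 50 bases after the start. A window was held for 123 of the 150 members, with 174 promoters in all, against 32851 promoters of all genes. The E box stood in 12.6% of member promoters (20 genes) and 7.15% of all promoters. The cAMP response element stood in 1.15% and 1.79%, in Slc25a25 and in Slc25a36, a mitochondrial carrier of pyrimidine nucleotides. TGACTCA, the AP-1 site, stood in 2.87% and 5.2%, and the CArG box of serum response factor in 0 member promoters and 1.63% of all. The amino acid response elements TGATGCAAT and TGATGAAAC stood in 0.575% and 0 member promoters, against 0.192% and 0.247% of all. Motifs can overlap, and a match says only that the letters are there.

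Facts of the arrays bear on all results. Median raw intensities ran from 24.2 to 72.05 per array for newly transcribed RNA, from 20 to 54.2 for total RNA and from 7.3 to 75.2 for amplified total RNA. The 3′ probe set of the GAPDH control exceeded the 5′ one by 2.16 ± 0.65 (log2, SD, n = 8) in newly transcribed, 1.55 ± 0.60 (n = 7) in amplified and -0.20 ± 0.11 (n = 8) in total RNA. The newly transcribed and amplified arrays fell into 2 sets that crossed the serum groups, by the sign of their first principal component (53% of the variance). The first set held replicates 1 and 4 of newly transcribed RNA in both conditions, amplified replicates 1 and 3 in 1% serum and amplified replicates 1 and 4 in 10% serum. The second set held the others. Between the sets 20 members (13.3%, against 14.7% of genes) lay at least 2-fold apart in the same direction in both kinds. Slc12a2, the sodium-potassium-chloride importer that sets cell volume, was higher in the first set by 1.95 in newly transcribed and 2.38 in amplified RNA. Slc29a1, a facilitative carrier of uridine and other nucleosides, was lower in it, with differences of -1.98 and -2.44. What the sets stand for was not tested, and total RNA was not part of this split. Fibroblast markers were measured for 11 of 11 genes, 10 of them above the array's median on all arrays, with summed intensities from 7724 to 27290. Of 9 measured macrophage markers, 5 were above it on all arrays, and their sums ran from 1761 to 5361 in newly transcribed RNA at 1% serum and 3215 to 6961 at 10%, 3293 to 7615 and 3283 to 8073 in total RNA, and 4030 to 8810 and 4068 to 8742 in amplified RNA. None of 7 endothelial and 3 erythroid markers, and 1 each of 6 epithelial, neural and muscle markers, passed the median on all arrays. The erythroid marker Slc4a1 is also a member. Fewer cells of a type and less RNA per cell cannot be told apart in such samples.

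The members were divided into 16 groups of 2 to 20 genes by their family number, and each group is named for what most of its families carry. Some members carry something else: Slc5a6, a carrier of the vitamins biotin and pantothenate, and Slc5a11, the inositol carrier, are counted with the sugar families. The amino acid carrier Slc6a18 is counted with neurotransmitters and amines, and Slc25a17, a carrier of peroxisomes, with the mitochondrial family. The intensity was above the array's median on all 23 arrays for 52 members (34.7%, against 38.2% of genes), on 12 to 22 arrays for 28, on 1 to 11 arrays for 26 and on none for 44 (29.3%, against 23.8% of genes). Mitochondrial carriers, which bring metabolites through the inner membrane, were above it on all arrays for 12 of 20, and only Slc25a members make up this group. Carriers of metals such as zinc, iron and copper were above it for 8 of 16, carriers of nucleosides and nucleotide sugars for 6 of 13, and amino acid carriers for 7 of 20. The sugar families had 1 of 10, carriers of bile acids and organic ions 1 of 14, and bicarbonate and anion carriers 2 of 8.

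In 5 of the groups, the range of 1 member that was above its array's median on every array shows how far a level moved over the 23 arrays. Slc25a4, an exchanger of ADP and ATP in mitochondria, ran from 1127 to 2981 with a median of 2351. Slc35b1, a carrier in the endoplasmic reticulum, ran from 505.9 to 1676. Slc39a7, which releases zinc from the endoplasmic reticulum, ran from 223.3 to 1041. Slc6a6, which imports taurine, ran from 418.5 to 2253, and Slc4a2, an exchanger of chloride and bicarbonate, from 100.9 to 493.1. As a ratio of highest to lowest, the span of these 5 was widest for Slc6a6 and narrowest for Slc25a4.

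In newly transcribed RNA, 5 members were called at 10% against 1% serum when arrays were paired by replicate number. Slc35e4, a member of the nucleotide sugar transporter family, Slc66a2, a PQ-loop membrane protein, and Slc39a4, a zinc importer, rose by 1.17 ± 0.19 (SE), 0.90 ± 0.14 and 0.90 ± 0.13. Slc6a2, the noradrenaline transporter, and Slc29a1, the nucleoside carrier, fell, with differences of -0.98 ± 0.14 and -0.90 ± 0.14. The test was limma's moderated test, adjusted over 12422 probe sets, with adjusted p-values of 0.045, 0.042, 0.040, 0.038 and 0.042 in that order (n = 4 pairs). The 5 members are 3.33% of 150, against 2.12% of all genes called in this way (1.09% higher and 1.03% lower). Without the pairing limma called 0 members and 0% of genes, and 11 members (7.33%, against 7.47% of genes) had an unadjusted p below 0.05. Leaving out any 1 of the pairs ended all 5 calls, with adjusted p-values from 0.0624 to 0.22, and so did the values as deposited or a pseudocount of 1. The median of the 150 differences was -0.01, as over all genes, and 73 were above 0 (36 with values as deposited, where the median of all genes shifted to -0.26). All 4 pairs moved one way for 39 members (26%, against 30.8% of genes).

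Slc35e4 has no settled substrate and was the member with the largest rise. Its newly transcribed intensities in replicates 1 to 4 were 369.8, 1381, 923 and 1173 in 1% serum and 858.8, 3354, 2990 and 1725 in 10% serum. Every pair was higher in 10% serum, by 1.18, 1.27, 1.68 and 0.55, while the groups overlapped. In total RNA they were 101.6, 182.7, 177.8 and 254 against 118.9, 485.3, 465.6 and 605.9. The pairs there differed by 0.20, 1.34, 1.31 and 1.20, so that replicate 1 stood apart from the others. The total RNA difference was 1.01 ± 0.21 with pairs (adjusted p = 0.19, limma), which did not pass.

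Slc66a2 was the member whose groups lay apart in newly transcribed and in total RNA. Newly transcribed intensities were 458.6, 888.7, 961.9 and 589.3 in 1% serum and 1112, 1420, 1606 and 1142 in 10% serum. Total RNA gave 245, 338.8, 303.2 and 285.8 against 375.7, 522.1, 600.8 and 580.8. Every array in 10% serum was above every array in 1% serum in both kinds. The total RNA difference was 0.78 ± 0.11 with pairs (adjusted p = 0.075, limma), short of the threshold. Amplified RNA gave 294.8, 403.7 and 238.1 against 621.1, 617.2, 765.1 and 318.3, where only replicate 4 in 10% serum fell within the range of the starved arrays, a difference of 0.83 ± 0.34.

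**Figure D1:**
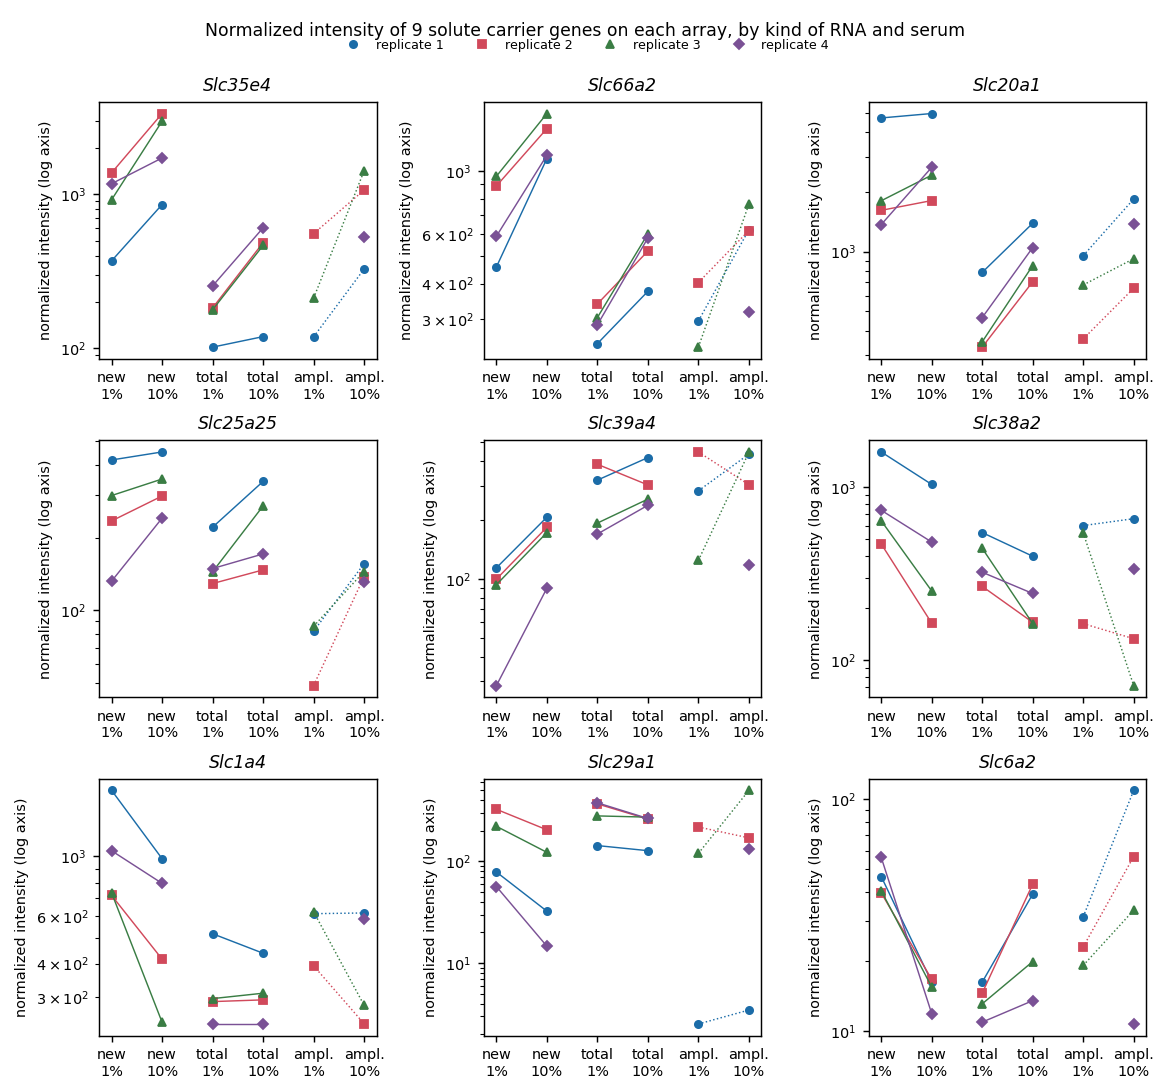
Quantile-normalized intensity (log axis, arbitrary units) of 9 solute carrier genes on all 23 arrays, by kind of RNA and serum condition. Each point is 1 array. Lines join arrays of the same replicate number, solid where the numbers were taken as pairs and dotted in amplified RNA. The 4 lines of Slc66a2 rise in newly transcribed and in total RNA without overlap of the groups, and the 4 total RNA lines of Slc20a1 run nearly parallel from 330.1 to 785.7 in 1% serum up to 704.9 to 1390 in 10% serum.

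The other 3 calls in newly transcribed RNA concerned genes with a second probe set that was not called. Slc39a4 brings zinc into the cell, and its intensities were 113.9, 99.75, 93.43 and 28.47 in 1% serum and 206.9, 183.7, 172.5 and 89.63 in 10% serum. All pairs rose, and the groups overlapped only through replicate 4 in 10% serum. A dimmer probe set of Slc39a4 had a difference of 0.22. Slc6a2 takes up noradrenaline in neurons, and its intensities were 46.42, 39.49, 40.3 and 56.1 against 16.31, 16.75, 15.53 and 11.93, apart but above the array's median on only 5 of 23 arrays. In total RNA it had the opposite sign (0.54, not called), with 16.29, 14.61, 13.14 and 10.96 against 38.97, 43.02, 19.97 and 13.56. In amplified RNA the mean log2 level of Slc6a2 was higher in 10% serum, 5.88 ± 0.94 (SD, n = 4) against 5.33 ± 0.21 (n = 3), and not called. The other probe set of Slc6a2 had 0.24 in newly transcribed and -0.69 in total RNA, opposite in both.

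Slc29a1 lets nucleosides, uridine included, cross the plasma membrane. Its newly transcribed intensities were 78.37, 323.6, 220.3 and 56.41 in 1% serum and 32.34, 203.5, 122.3 and 14.64 in 10% serum. Each pair was lower in 10% serum, although replicates 2 and 3 stayed above replicates 1 and 4 in both conditions, as the array sets do. In total RNA the intensities were 142.5, 365.8, 278.7 and 374.7 against 127, 259.6, 271.2 and 262.9, a difference of -0.29 that was not called and was 0.13 with values as deposited. In amplified RNA the mean log2 level of Slc29a1 was higher in 10% serum, 7.01 ± 1.98 (SD, n = 4) against 6.39 ± 1.92 (n = 3), and not called. A second probe set of Slc29a1 had -0.23 in newly transcribed RNA. The probe sets of Slc29a1 disagreed in direction in amplified RNA, each differing by at least 0.5.

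Amino acid carriers gave no call, and the 3 lowest differences with pairs were close to the threshold. Slc38a2, a sodium-coupled importer of small neutral amino acids, had -0.98 ± 0.18 (adjusted p = 0.058, limma with pairs). Its newly transcribed intensities were 1597, 470.1, 639.8 and 735.5 in 1% serum and 1037, 163.9, 251.5 and 481.9 in 10% serum, lower in each pair. Total RNA gave 546.7, 267.4, 443.6 and 322.7 against 399.2, 165.7, 163 and 243.2, again lower in each pair, with a difference of -0.71 ± 0.18 (adjusted p = 0.28). The other 3 probe sets of Slc38a2 were dim, below the array's median on all arrays. Slc1a4, an exchanger of alanine, serine and cysteine, had -0.88 ± 0.19 in newly transcribed RNA (adjusted p = 0.076), from 1760, 716.5, 732.2 and 1050 to 981.1, 415.5, 242.1 and 794.4. In total RNA its difference was -0.04, from 516.4, 289, 296.5 and 238.6 to 437.1, 293.3, 310.5 and 238.6, with a sign that turned under other scalings. Slc1a6, a glutamate carrier best known from the cerebellum, had -1.04 ± 0.25 (adjusted p = 0.086), from 257.7, 147.1, 185.1 and 69.09 to 55.44, 79.16, 79.16 and 49.34. The 20 amino acid carriers had a median of -0.09 for newly transcribed, 0.01 for total and 0.08 for amplified RNA.

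Other members short of the threshold in newly transcribed RNA were spread over several substrates. Slc44a2, a choline carrier, had -0.77 ± 0.15 (adjusted p = 0.065, limma with pairs), and Slc37a4, which takes glucose 6-phosphate into the endoplasmic reticulum, had -0.68 ± 0.14 (adjusted p = 0.069). Slc25a36, the mitochondrial pyrimidine nucleotide carrier, had -0.67 ± 0.14 (adjusted p = 0.074), from 2288, 781.1, 809.9 and 981.1 to 1521, 435.3, 401 and 793.1. Groups lay apart for 6 members (5 higher and 1 lower, 4%, against 4.16% of genes, 2.1% higher and 2.06% lower). Beside Slc66a2 and Slc6a2 these were Slc6a18, a kidney amino acid carrier, with 0.74, Slc30a3, a vesicular zinc carrier, with 0.52, Slc35g3 with 0.51 and Slc12a1, the kidney sodium-potassium-chloride importer, with 0.25. Slc6a18 was dim, with 9.152 to 23.79 in 1% serum and 26.77 to 41.03 in 10% serum. Slc12a1 was dimmer still, with 8.274 to 11.37 and 13.59 to 16.98. Slc30a3 had intensities of 247.3, 215.2, 254.6 and 306.5 in 1% serum and 391.3, 308.5, 432.2 and 358.5 in 10% serum. Its highest starved array lay just under the lowest treated one.

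In total RNA the phosphate importer Slc20a1 rose about 2-fold with serum and was the only member called. Its intensities were 785.7, 330.1, 351.2 and 465 in 1% serum and 1390, 704.9, 850.7 and 1048 in 10% serum. Mean log2 levels were 8.88 ± 0.55 and 9.94 ± 0.41 (SD, n = 4). Each pair rose, by 0.81, 1.06, 1.24 and 1.15, while replicate 1 was highest in both conditions and made the groups overlap. The difference was 1.06 ± 0.11 with pairs (adjusted p = 0.027, limma) and 1.06 ± 0.30 without them (adjusted p = 0.58). That is 1 of 150 members, 0.667%, against 0.606% of all genes called with pairs (0.57% higher and 0.0364% lower), and 0 members against 0.145% of genes without pairs (0.133% higher and 0.0121% lower). The adjusted p was 0.0732 to 0.198 with 1 pair left out, which ended the call each time, and 0.0121 to 0.527 over the other scalings and pseudocounts.

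Newly transcribed Slc20a1 was already bright in 1% serum. It gave 4719, 1615, 1805 and 1369 in 1% serum and 4969, 1809, 2430 and 2661 in 10% serum. The difference was 0.40 ± 0.17 with pairs (adjusted p = 0.24, limma), above 0 in all 4 pairs (0.07, 0.16, 0.43 and 0.95). Amplified RNA gave 953.2, 362.9 and 679.3 against 1842, 653.8, 920.9 and 1386, a difference of 0.83 ± 0.45. The newly transcribed response of Slc20a1 minus its total RNA response was not called.

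No other member was called in total RNA. The unpaired fit had 6 members (4%, against 5.62% of genes) at an unadjusted p below 0.05, the median of the 150 differences was 0.02 against -0.02 for all genes, and 7 members differed by 0.5 or more. Groups lay apart for 3 members, all higher (2%, against 1.65% of genes higher and 3.18% in either direction). They were Slc66a2, Slc35d1, a carrier of UDP-sugars into the endoplasmic reticulum, and Slc29a2, a nucleoside carrier. Slc35d1 had 95.66, 62.27, 99.3 and 82.44 in 1% serum and 118.9, 142.3, 135.1 and 129.2 in 10% serum, a difference of 0.56 ± 0.14 (adjusted p = 0.28, limma with pairs). Slc29a2 lay below the array's median on all arrays, with 0.26. All 4 pairs moved one way for 31 members (20.7%, against 21.1% of genes).

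In amplified total RNA no member and no gene was called (0%), and 2 members (1.33%, against 1.53% of genes) had an unadjusted p below 0.05 by limma. Replicate numbers did not pair there. Slc25a25, the calcium-regulated ATP and phosphate carrier, was the member whose groups lay apart upwards, with 82.04, 48.94 and 85.97 in 1% serum and 155.9, 137.8, 144.7 and 131.6 in 10% serum, a difference of 0.87 ± 0.21 (adjusted p = 0.9998). Newly transcribed RNA gave 418.1, 234.2, 298.1 and 132.1 against 451.2, 296.8, 348.8 and 240.5 for it, higher in each pair, and total RNA gave 220.6, 129.1, 144.4 and 148.9 against 340.9, 147, 270 and 171.1, also higher in each pair. The newly transcribed difference of Slc25a25 was 0.36 ± 0.15 (adjusted p = 0.22, limma with pairs) and -0.14 with values as deposited. Downwards the groups lay apart for the organic cation carrier Slc22a2, the inositol carrier Slc5a11 and the sodium-glucose importer Slc5a1, with -0.40, -0.27 and -0.21. All of these were dim. Slc22a2 ran from 22.52 to 30.52 in 1% serum and from 8.33 to 22.26 in 10% serum. Slc5a11 ran from 11 to 18.31 and from 6.324 to 10.68, and Slc5a1 from 4.959 to 6.752 and from 0.7043 to 4.743. With Slc25a25, 4 members lay apart (2.67%, against 2.21% of genes). Slc35e4 had the largest difference, 1.5 ± 0.65, from 118.4, 555.2 and 211.2 to 326.8, 1067, 1420 and 528.9. Slc11a1, a metal carrier of macrophage phagosomes, had 1.00 ± 0.67 beside the macrophage marker sums given above, whose part in it was not tested. With the array set as a block, limma again called 0 members and 0% of genes, with 7 members (4.67%, against 3.13% of genes) at an unadjusted p below 0.05.

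By family group, the medians of the serum responses stayed near 0. The 20 mitochondrial carriers had medians of -0.13 for newly transcribed, 0.01 for total and 0.05 for amplified RNA. The 16 metal carriers had -0.10, 0.05 and 0.01, and the 13 carriers of nucleosides, nucleotide sugars and acetyl-CoA had -0.06, 0.00 and -0.03. The 10 members of the sugar families had -0.14 (2 above 0), 0.05 (8 above 0) and -0.24 (4 above 0). The 14 carriers of bile acids and organic ions had 0.12 (11 above 0), 0.01 and -0.07. The 14 members of the neurotransmitter and amine families had 0.02, -0.04 and -0.04. These are descriptions of lists and carry no test.

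**Figure D2:**
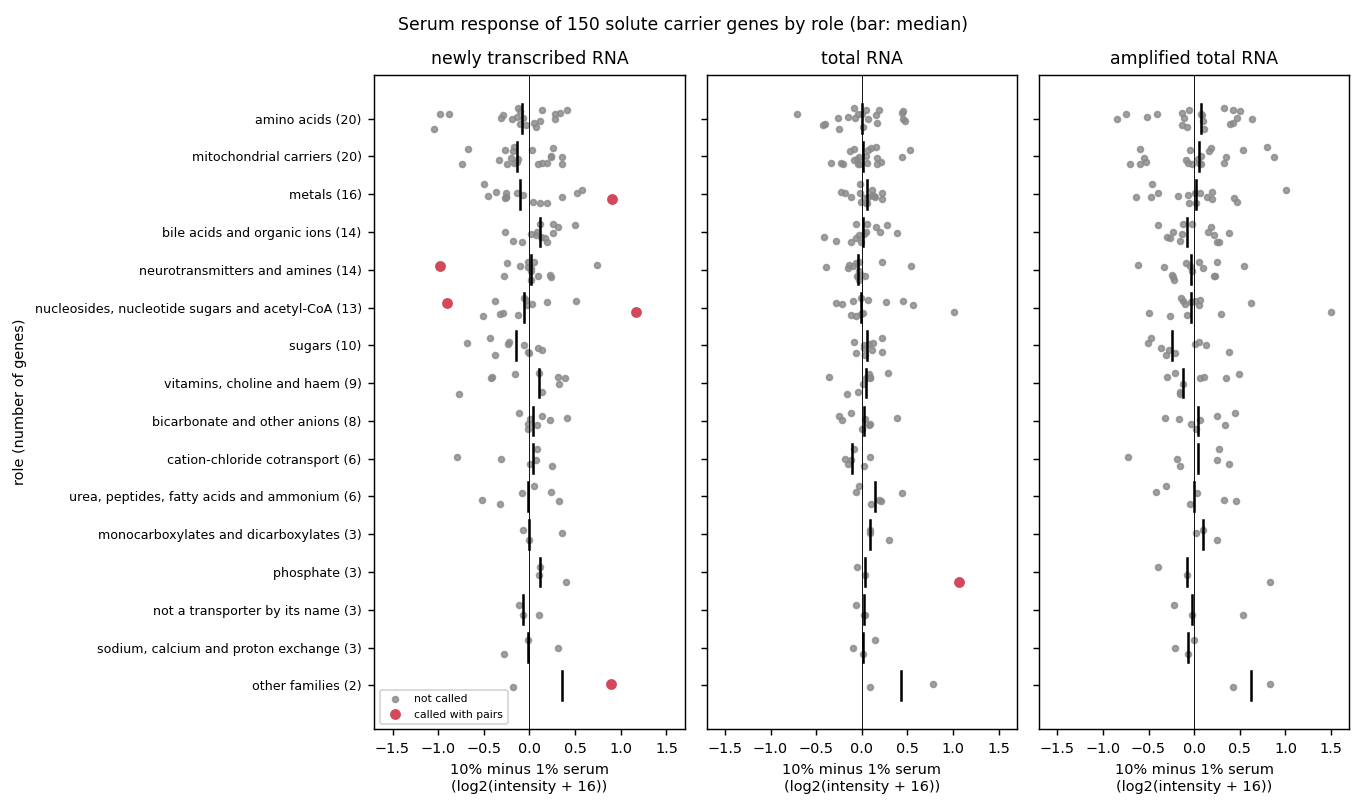
Difference between 10% and 1% serum (log2 scale) of 150 solute carrier genes by substrate group, in newly transcribed, total and amplified total RNA; each point is 1 gene, the bar is the median of the group, and red marks genes called by limma with pairs. Most points lie within 0.5 of 0, the 5 red points of newly transcribed RNA lie on both sides and the 1 red point of total RNA is Slc20a1.

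The serum responses of the kinds of RNA were also compared with each other. For newly transcribed minus total RNA limma called 0 members and 0% of genes, with 4 members (2.67%, against 2.58%) at an unadjusted p below 0.05. For newly transcribed minus amplified RNA it called 0 and 0%, with 3 members (2%, against 1.5%). The responses of Slc20a1, Slc1a4 and Slc38a2 had different sizes in the kinds of RNA, and this test did not tell them apart. Both comparisons reuse the newly transcribed arrays.

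Newly transcribed RNA was next set against amplified total RNA, which asks how large the newly made share of each transcript is relative to that of other transcripts. The titles call only the latter amplified, while the protocol shared by all samples names a linear amplification. The labels therefore do not settle whether both were prepared alike. In 10% serum, with arrays paired by replicate number, 13 members were higher and 11 lower in newly transcribed RNA. That is 16% of members against 25.6% of genes (13.6% higher and 12% lower). Without pairs 1 was higher and 1 lower (1.33%, against 4.78% of genes, 1.45% higher and 3.32% lower). Both were among the 24, Slc25a25 and the sugar carrier Slc50a1, and leaving out 1 array at a time gave 0 to 3 calls. The groups of 7 members lay apart upwards and of 4 downwards (7.33%, against 12.8% of genes, 5.34% higher and 7.43% lower). Differences here are newly transcribed minus amplified.

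Slc35e4 was higher by 1.43 ± 0.16 (adjusted p = 0.0049, limma with pairs), Slc20a1 by 1.30 ± 0.15 (adjusted p = 0.0052), Slc66a2 by 1.21 ± 0.19 (adjusted p = 0.010) and Slc25a25 by 1.11 ± 0.16 (adjusted p = 0.0077). These comparisons share the newly transcribed arrays of 10% serum with the serum response. Slc25a25 had 451.2, 296.8, 348.8 and 240.5 in newly transcribed and 155.9, 137.8, 144.7 and 131.6 in amplified RNA of treated cells, with no overlap. Zinc exporters Slc30a1 and Slc30a4 were higher by 0.82 and 0.75, the ascorbate importer Slc23a2 by 0.78, and the fatty acid carrier Slc27a4 by 0.69. Slc3a2, the heavy chain that amino acid exchangers need to reach the surface, was higher by 0.72, with 1206, 2002, 2361 and 548.2 against 577.4, 1033, 1449 and 471.6. Slc7a6, a light chain partner of Slc3a2, was higher by 0.64. Slc7a5, which also pairs with Slc3a2, had 0.36 and was not called. Slc7a7, Slc7a8 and Slc7a11 of the same family had 0.49, -0.02 and -0.001 and were not called either. With the array set as a block neither Slc3a2 nor Slc7a6 was called (adjusted p = 0.094 and 0.072, limma). The mitochondrial carriers Slc25a44, Slc25a14 and Slc25a47 were higher by 0.84, 0.81 and 0.55.

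Lower members were led by Slc38a10, of the neutral amino acid carrier family, with -1.82 ± 0.19 (adjusted p = 0.0043, limma with pairs). Its intensities were 109.4, 267.4, 360.7 and 62.27 in newly transcribed and 281.1, 1247, 1493 and 274.5 in amplified RNA of treated cells. Each pair was lower, and replicates 2 and 3 were above replicates 1 and 4 in both kinds. Slc50a1, a sugar carrier, had -1.71 ± 0.21 (adjusted p = 0.0053), from 367.2, 577.8, 805.7 and 363.2 in amplified to 159, 182.1, 166.2 and 80.95 in newly transcribed RNA, with no overlap. Slc1a6 had -1.49, the choline carriers Slc44a2 and Slc44a1 had -1.16 and -0.93, and the oxoglutarate and dicarboxylate carriers of mitochondria, Slc25a11 and Slc25a10, had -1.06 and -0.96. The glutamine importer Slc1a5 had -0.86, the imprinted organic cation carrier Slc22a18 -0.98, the zinc importer Slc39a4 -0.83 and the haem carrier Slc48a1 -0.61. The count of 24 was 29, 7, 9 and 12 without pair 1, 2, 3 and 4, and 0 with values as deposited.

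In 1% serum limma called 0 members, against 3.71% of genes (1.47% higher and 2.24% lower), with 21 members (14%, against 21.5% of genes) at an unadjusted p below 0.05. The groups lay apart for 11 members upwards and 10 downwards (14%, against 18.7% of genes, 9.2% higher and 9.45% lower). The 4 leading members of 10% serum had differences on the same side, of 1.76 for Slc35e4, 1.73 ± 0.50 for Slc20a1 (adjusted p = 0.12), 1.62 ± 0.38 for Slc25a25 (adjusted p = 0.073) and 1.14 ± 0.31 for Slc66a2 (adjusted p = 0.11), and Slc50a1 had -1.47 ± 0.33 (adjusted p = 0.063). With the array set as a block, a choice made after these values were seen and one that uses the data to define the block, limma called 7 members higher and 5 lower in 1% serum (8%, against 14.4% of genes, 7.68% higher and 6.69% lower) and 10 higher and 9 lower in 10% serum (12.7%, against 22.1%, 11.5% higher and 10.6% lower). There were 8 members called in both serum conditions (5.33%, against 11.9% of genes). Slc20a1, Slc25a25, Slc66a2 and Slc30a4 were higher in newly transcribed RNA in both, and Slc38a10, Slc50a1, Slc22a18 and Slc25a11 lower in both. With that block Slc20a1 had 1.86 ± 0.43 in 1% serum (adjusted p = 0.038) and Slc38a10 had -1.63 ± 0.24 (adjusted p = 0.014).

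**Figure D3:**
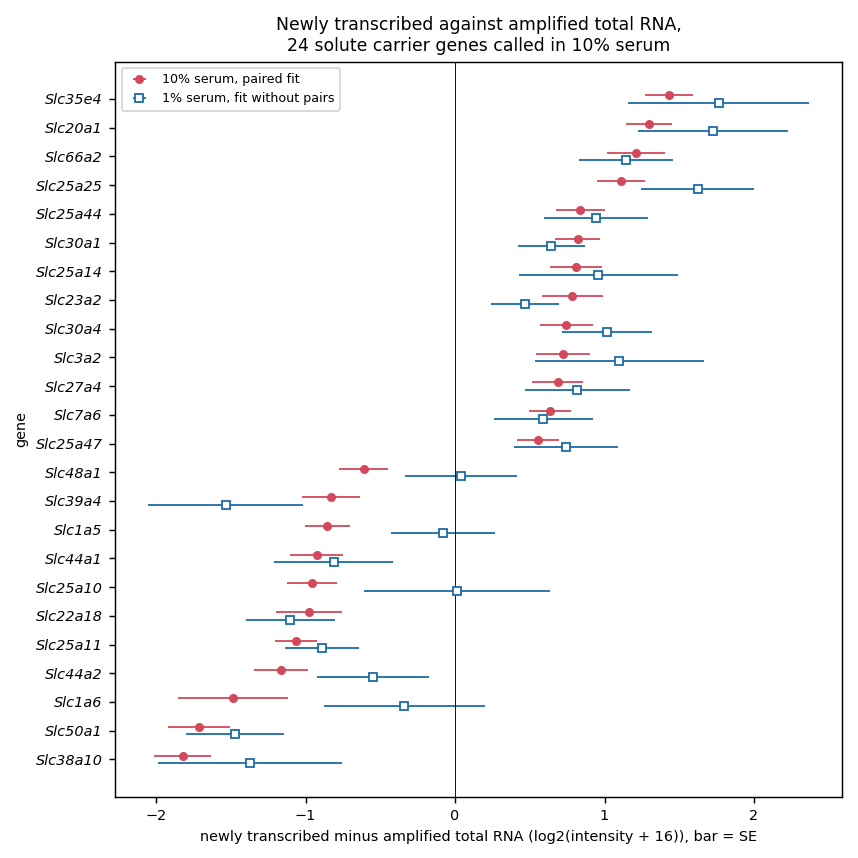
Difference between newly transcribed and amplified total RNA (log2 scale) of the 24 solute carrier genes called in 10% serum with pairs; points are fitted differences and bars their SE, from the paired fit in 10% serum and the unpaired fit in 1% serum. Slc35e4, Slc20a1, Slc66a2 and Slc25a25 lie above 1 in both conditions, and Slc38a10 and Slc50a1 lie lowest in 10% serum.

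Amplified and unamplified total RNA differed for 26 members, which bears on each comparison between kinds. Amplified against unamplified total RNA, with serum as a term, had 13 members higher and 13 lower by limma (17.3%, against 20.7% of genes, 11.2% higher and 9.47% lower). Higher were Slc25a51, the mitochondrial NAD carrier, by 1.61 ± 0.30 (adjusted p = 0.0016), Slc39a6, a zinc importer, by 1.18 ± 0.32 (adjusted p = 0.019) and Slc25a11 by 1.02 ± 0.16 (adjusted p = 0.00045). A second probe set of Slc25a51 had -0.23 and was not called. The iron importer Slc11a2 was higher by 0.99, the sodium-calcium exchanger Slc8a1 by 0.89, the copper importer Slc31a1 by 0.65 and the fructose carrier Slc2a5 by 0.64. Slc25a11, Slc44a1 and Slc50a1, lower in newly transcribed than in amplified RNA, were higher in amplified than in unamplified RNA by 1.02, 0.88 and 0.76. Slc25a25 and Slc25a44, higher in newly transcribed than in amplified RNA, were lower in amplified than in unamplified RNA, with -0.77 and -0.51. Among the members called in both comparisons, Slc30a1 was higher in both and Slc44a2 lower in both. These comparisons share the amplified arrays.

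Lower in amplified RNA were Slc7a5, the large neutral amino acid exchanger that pairs with Slc3a2, with -1.30 ± 0.30 (adjusted p = 0.0076, limma) and Slc25a5, the ADP and ATP exchanger of growing cells, with -1.25 ± 0.13 (adjusted p = 2.2e-05). Slc7a5 had 1574, 599.1, 909.8 and 691.6 in unamplified and 293.7, 572.8 and 183.7 in amplified RNA of starved cells, with no overlap. In treated cells it had 1521, 907.8, 1242 and 592.1 against 488.7, 482.2, 667.3 and 214.3, where 1 amplified array passed the lowest unamplified one. The other probe sets of Slc25a5, both dimmer, had -0.12 and 0.38, and the mean of its probe sets was not called. The zinc carriers Slc39a1 and Slc39a7 had -1.12 ± 0.31 (adjusted p = 0.018) and -0.91, and Slc25a25 had -0.77. Leaving out 1 array at a time gave 19 to 32 members, and the values as deposited gave 1. Slc20a1, Slc35e4 and Slc66a2 had 0.31, 0.73 and 0.09 and were not called.

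**Figure D4:**
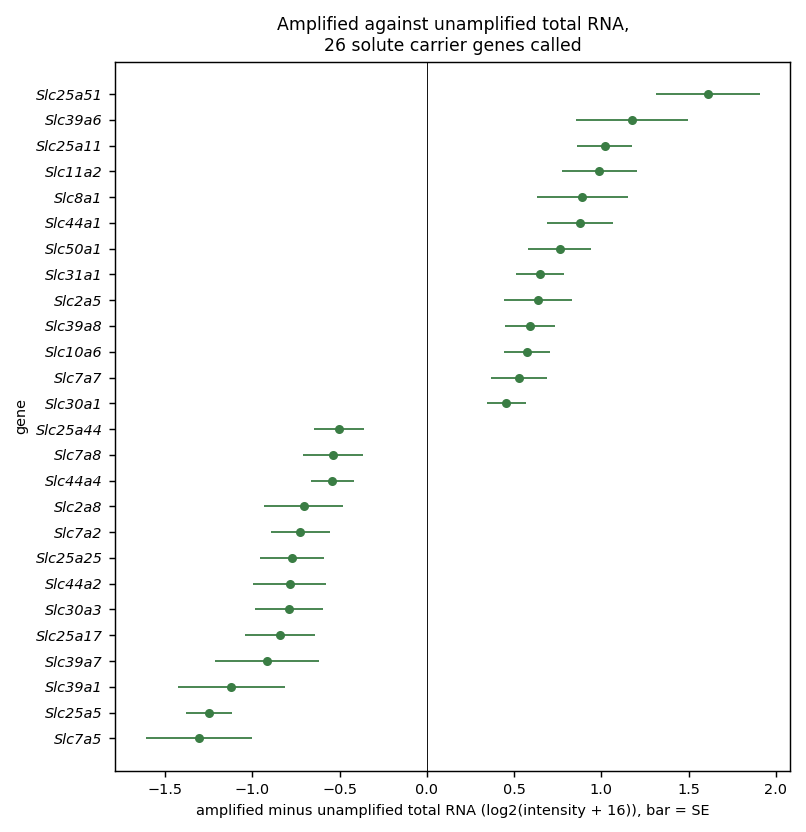
Difference between amplified and unamplified total RNA (log2 scale) of the 26 solute carrier genes called by limma, with serum as a term; points are fitted differences and bars their SE. Slc25a51 stands highest at 1.61 and Slc7a5 lowest at -1.30.

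Genes that work with transporters gave few calls in the serum responses with pairs. Over all genes 2.12% were called with pairs in newly transcribed and 0.606% in total RNA. None of 25 ABC transporters, pumps that use ATP, was called in any of the 3 kinds of RNA, with medians of -0.01, 0.11 and -0.01. Of 15 measured genes of the sodium pump and of transporter regulators, Sgk1, a serum-inducible kinase that raises transporters at the cell surface, rose in total RNA by 0.85 ± 0.10 (adjusted p = 0.044, limma with pairs), and none was called in newly transcribed RNA. These 15 take in Slc9a3r1 and Slc9a3r2, which are also members. None of 14 metal handling genes was called. The 18 amino acid response genes had medians of -0.20 in newly transcribed (6 above 0), -0.01 in total (8 above 0) and -0.004 in amplified RNA (8 above 0). The only one called was Cebpb, a transcription factor. It rose by 0.98 ± 0.14 in newly transcribed (adjusted p = 0.039, limma with pairs) and 0.85 ± 0.09 in total RNA (adjusted p = 0.031). Trib3, a pseudokinase of the same response, had -0.53 ± 0.11 in newly transcribed RNA (adjusted p = 0.072).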

How the data were processed

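The values the authors deposited were 1 linear intensity per Affymetrix probe set on each of 23 arrays. Per the labels' protocols RNA was reverse transcribed, linearly amplified and labelled with biotin by T7. Scaling, if any, and the program that summarised the probes are not given in the sources used here. Arrays were grouped by their titles, which call them biological replicates, so p-values measure the spread between these samples. Intensities were quantile normalized over all arrays and log2(value + 16) was taken. Tests did not use the 66 control probe sets. Of the 12488 probe sets, 10833 had 1 symbol, 396 several and 1193 were not listed in the platform annotation, and only the first were named.

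Models were fitted in R 4.3.3 by limma 3.58.1 (functions lmFit, then eBayes; two-sided p), p-values were adjusted over 12422 probe sets after Benjamini and Hochberg, and calls were made at an adjusted p below 0.05. The procedure was tested on simulated data. All comparisons were fitted without a block. Where the replicate numbers were taken as pairs, a fit that takes the number as a block stands beside it. The distances from the group mean, over all probe sets, of 2 arrays sharing a number correlated at 0.80, 0.80, 0.76 and 0.70 in newly transcribed, 0.70, 0.23, 0.47 and 0.57 in total RNA, and 0.56, 0.73, 0.71 and 0.69 between newly transcribed and amplified RNA in 10% serum, so these were taken as paired (minimum 0.1). Those of amplified RNA (0.69, 0.76 and -0.47) and of newly transcribed and amplified RNA in 1% serum (0.37, 0.68 and -0.39) were not. The pairing comes from the data. In both newly transcribed groups and in amplified RNA of 10% serum, replicates 1 and 4 fell into one array set and replicates 2 and 3 into the other. Arrays sharing a number there also shared a set, so these correlations cannot tell pairing by number from the sets. Correlations between different numbers are not given. The calls made with pairs rest on this choice.

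Members, roles and lists were chosen with earlier results of these data known. Genes named were those called (at most 15 a direction), those whose groups lay apart, the most steadily bright gene of each role, and those whose probe sets disagreed; members short of the threshold in newly transcribed RNA, Slc11a1, Slc12a2 and the genes of other lists outside that rule were added after their values were seen. Alternatives were the values as deposited, scaling to 1 median, quantile normalization within a comparison, pseudocounts of 1 and 64, bright probe sets only, the mean of a gene's probe sets, each array left out, the replicate block and, added later, the array set as a block.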

Additional observations from a re-analysis of the deposited data

Results flagged for a closer look

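Among 45 groups of 4 arrays of named members, 3 held an array far from the others of its group; chance flags about 1 in 20 groups. Slc35e4 had an intensity of 118.9 in replicate 1 of total RNA in 10% serum, where the others lay between 465.6 and 605.9. Slc39a4 had 28.47 in replicate 4 of newly transcribed RNA in 1% serum, against 93.43 to 113.9. Slc29a1 had 127 in replicate 1 of total RNA in 10% serum, against 259.6 to 271.2.

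The serum response differed between kinds of RNA for 2 members in that every pair moved one way in newly transcribed and the opposite way in total RNA. The difference of the responses, newly transcribed minus total, was -1.52 for Slc6a2 and 0.40 for Slc9a8, a sodium-proton exchanger. Tested as an interaction by limma, neither was called: the adjusted p was 0.67 for Slc6a2 (0.16 with the replicate block) and 0.999 for Slc9a8 (0.38 with the block). These are 1.33% of members, against 1.13% of all genes with opposite pairs.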

How the results depend on the processing

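The replicate block was not fitted to amplified against unamplified RNA. Elsewhere it changed the number of called members from 0 to 5 in the newly transcribed serum response and from 0 to 1 in total RNA. It also changed it from 2 to 24 for newly transcribed against amplified RNA in 10% serum, and changed no other count. With the block and arrays scaled to 1 median these were 5, 2 and 23, with quantile normalization within the comparison 3, 1 and 24, and with a pseudocount of 64 they were 2, 1 and 17. With the block and a pseudocount of 1 the last was 17, and with values as deposited it was 0. With the block and 1 pair left out the last was 29, 7, 9 and 12. Without the block the last was 0 in the deposited values, 0 at a pseudocount of 1, and 0 to 3 with 1 array left out. In 1% serum the count of 0 became 1 with a pseudocount of 64, 2 with only bright probe sets and 0 to 1 with 1 array left out. The array set as a block gave 12 in 1% serum and 19 in 10% serum. Amplified against unamplified RNA gave 1 with values as deposited. Signs of single genes were followed only for named and shown members. Over all members more signs turned, as the smaller count of newly transcribed differences above 0 with values as deposited shows. Signs turned for few of the followed members, none of them called there: Slc25a25 in newly transcribed RNA was -0.14 with values as deposited, with or without the block. Slc1a4 in total RNA was 0.37 with values as deposited and 0.044 with 1 median (each with or without the block), -0.19 to 0.18 with 1 array left out (above 0 at 0.18, 0.09 and 0.0276 without replicate 1 in 1% serum, replicate 4 in 10% serum and pair 1); in amplified RNA it was 0.22 with values as deposited. Slc6a2 in total RNA was -0.0757 as the mean of its probe sets, and Slc29a1 in total RNA was 0.13 with values as deposited, with or without the block. Apart from these, the cause of which was not tested, 1620 values of single genes kept their direction and side of the threshold, 168 passed it and 104 fell short of it. Precision is limited by the 3 or 4 arrays per group and, for Slc6a2, by low signal. For Slc39a4 it is limited by 1 newly transcribed array of 1% serum that stood apart at 28.47.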
